A study of Homo sapiens with 12 samples.

Results

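The promoters of 9 genes were examined for H3K4me3, the trimethylated histone mark found at active promoters, in BON1 cells. The set was a list of gene names: the corepressor genes CTBP1 and CTBP2, their complex members RCOR1, HDAC1, HDAC2 and KDM1A, and the demethylase genes KDM5A, KDM5B and KDM2B. All 9 were found among 20136 protein-coding genes of the annotation. Members were chosen by name and not by a measured value, though earlier results of these data were known at the time.

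BON1 is a human pancreatic neuroendocrine tumor line. Control cells, designated BON1/TGL/pQ, were compared with BON1/TGL/HA-Bcl-xL cells, which overexpress Bcl-xL, a BCL2-family protein that blocks apoptosis, with an HA tag. Both lines were grown in puromycin, and whether either is a single clone is not given in the sources used here. CUT&RUN, in which an antibody directs a nuclease to chromatin so that bound fragments are released and sequenced, was done on 500000 cells per condition, for H3K4me3 and, as background, with a rabbit IgG raised against mouse. For H3K4me3, 3 control libraries (replicates 1 to 3) and 2 of the HA-Bcl-xL line (replicates 2 and 3) were used, and for IgG 3 of each line. The first H3K4me3 replicate of HA-Bcl-xL was not analysed here.

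CtBP proteins are NAD(H)-binding corepressors that DNA-binding factors recruit to their targets. They assemble with the scaffold CoREST (RCOR1), the deacetylases HDAC1 and HDAC2, and LSD1 (KDM1A), a demethylase that removes mono- and dimethyl marks from H3K4. LSD1 cannot act on the trimethyl state, which KDM5A and KDM5B remove, and KDM2B is a CpG-island-binding Jumonji protein of a Polycomb complex for which H3K4me3 demethylation has also been described. CtBP2 has been linked to the nuclear entry of Bcl-xL, so the question here was whether the mark at the genes of this machinery differed between the lines.

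The deposited data were peak lists, 1 per library, in which every peak had a q-value of at most 0.01. H3K4me3 lists held 10247 to 17711 peaks on chromosomes 1 to 22, X and Y, with control replicate 1 the longest and control replicate 3 the shortest. IgG lists held 244 to 2113. The fragments under a peak's highest point, the summit, were solved from the fold and p of that peak, and their median was 9 to 12 per H3K4me3 library. As a check of the label, 4 of 8 neuroendocrine genes were marked in all 5 H3K4me3 libraries, CHGB, NEUROD1 and SCG2 within 1 kb of the 5′ end and INSM1 within 2.5 kb. The other 4 were not: SYP had a peak in 2 libraries, CHGA, a defining granule gene, in 1, ENO2 in 1 within 2.5 kb, and NCAM1 in none within 2.5 kb. The leukocyte genes PTPRC and CD3E had none within 2.5 kb, and the fibroblast gene COL1A1 had one in 1 library. Of all protein-coding genes, 21.3% had a peak in all 5 H3K4me3 libraries within 1 kb and 25.6% within 2.5 kb. With 8 neuroendocrine genes the check is weak. A missing peak at this depth was read as not detected. In bulk cells a called peak also does not tell the share of cells with the mark from the amount per cell.

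Before the counts, 5 stretches from the peaks of CTBP2, HDAC2, KDM1A and RCOR1 are shown, to give the sequence under regions that recurred in these genes. Other regions found in 2 or more libraries, those of KDM5A and KDM2B among them, are described by position only. They are from GRCh37, 5′ to 3′ on the strand of the gene, and capitals mark the bases under a peak in the largest number of libraries. The CTBP2 stretch (chr10:126846836-126847076, minus strand) and the HDAC2 stretch (chr6:114291001-114291241, minus strand) carry bases shared by all 5 H3K4me3 libraries. Those of KDM1A upstream (chr1:23345700-23345935) and downstream of the start (chr1:23346657-23346897, both plus strand) carry bases shared by 4, and that of RCOR1 (chr14:103060073-103060313, plus strand) bases shared by 2.
CTBP2 shared peak: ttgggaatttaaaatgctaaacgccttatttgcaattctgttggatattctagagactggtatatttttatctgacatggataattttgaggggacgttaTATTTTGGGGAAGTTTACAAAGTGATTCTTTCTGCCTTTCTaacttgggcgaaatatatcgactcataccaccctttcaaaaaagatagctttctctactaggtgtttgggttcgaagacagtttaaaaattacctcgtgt
HDAC2 intron: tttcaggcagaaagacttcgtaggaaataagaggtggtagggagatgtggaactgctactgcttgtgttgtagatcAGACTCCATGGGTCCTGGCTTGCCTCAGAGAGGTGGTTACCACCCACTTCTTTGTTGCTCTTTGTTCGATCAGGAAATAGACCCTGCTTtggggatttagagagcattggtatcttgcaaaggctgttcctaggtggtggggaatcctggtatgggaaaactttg
KDM1A upstream: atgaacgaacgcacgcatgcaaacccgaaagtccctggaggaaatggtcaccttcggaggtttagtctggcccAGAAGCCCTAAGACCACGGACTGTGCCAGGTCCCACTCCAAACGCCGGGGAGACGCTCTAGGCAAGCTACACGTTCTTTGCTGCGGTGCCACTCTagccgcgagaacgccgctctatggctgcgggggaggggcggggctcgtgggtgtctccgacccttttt
KDM1A downstream: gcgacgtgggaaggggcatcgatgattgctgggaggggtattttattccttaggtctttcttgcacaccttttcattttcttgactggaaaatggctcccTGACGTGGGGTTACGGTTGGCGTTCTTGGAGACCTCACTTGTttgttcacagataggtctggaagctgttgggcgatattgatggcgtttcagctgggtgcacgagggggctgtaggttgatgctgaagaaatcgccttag
RCOR1 intron: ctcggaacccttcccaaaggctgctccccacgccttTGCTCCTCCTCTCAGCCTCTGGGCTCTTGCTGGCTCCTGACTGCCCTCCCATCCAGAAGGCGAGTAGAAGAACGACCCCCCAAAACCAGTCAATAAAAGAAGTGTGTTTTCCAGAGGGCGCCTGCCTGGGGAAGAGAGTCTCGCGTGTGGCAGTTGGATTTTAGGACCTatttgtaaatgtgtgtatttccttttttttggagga

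The composition of these stretches differed. CTBP2's had a GC content of 35.3% with 6 CpG dinucleotides, HDAC2's 47.7% with 2, and KDM1A's upstream stretch 61.0% with 19.

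Within 1 kb of the 5′ end, 4 of the 9 genes were marked by a called H3K4me3 peak in at least 1 library: KDM1A and KDM5A in all 5, KDM2B in 4 and HDAC1 in 1. CTBP1, CTBP2, RCOR1, HDAC2 and KDM5B, 5 of the 9, had none there, like 51.8% of all genes. Of all protein-coding genes, 48.2% had such a peak in at least 1 library and 21.3% in all 5. Per library, 3 ± 1 of the 9 genes had a peak in control cells (SD, n = 3). The HA-Bcl-xL value was 3 ± 0 (SD, n = 2), so the means were equal. Each library's share of all genes was 28.2 to 40.4%.

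The 5′ end in the annotation was not where the mark lay for CTBP2 and HDAC2. With 1 kb around every annotated transcript start, 8 of the 9 genes had a peak in at least 1 library (56.6% of all genes), and 4 had one in all 5 (26.5% of all genes): CTBP2, HDAC2, KDM1A and KDM5A. RCOR1, whose peaks began 1116 bp into the gene, was the gene without one (43.4% of all genes). Windows around any start cover more bases in genes with more start positions, from 4 (RCOR1) to 36 (KDM5B) in this set. The shares of all genes around any start, here and below, were not matched for that number. Of the 9 genes, 6 ± 1 had a peak per control library (SD, n = 3). It was 5 ± 0 for HA-Bcl-xL (SD, n = 2). The difference of -1 gene equalled the SD of the control libraries and was not tested. The difference was smaller within 2.5 kb of any start, with 6.33 per control against 6 per HA-Bcl-xL library. Within 10 kb of any start its direction turned, with 6.67 against 7.

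Wider windows took in more of the genes. Within 10 kb of the 5′ end, CTBP2, KDM1A and KDM5A had a peak in all 5 libraries (29.7% of all genes) and 8 of the 9 in at least 1 (60.5%), HDAC2 being the gene without (39.5%). Within 2.5 kb of the 5′ end, CTBP1 and HDAC2 had none (46.5%). Around any start, 4 genes were marked in all 5 libraries within 2.5 kb (28.7%) and the same 4 within 10 kb (33%), and 0 of the 9 had no peak, against 40.9% and 34.7% of all genes. These shares, too, were not matched for the number of start positions per gene.

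**Figure D1:**
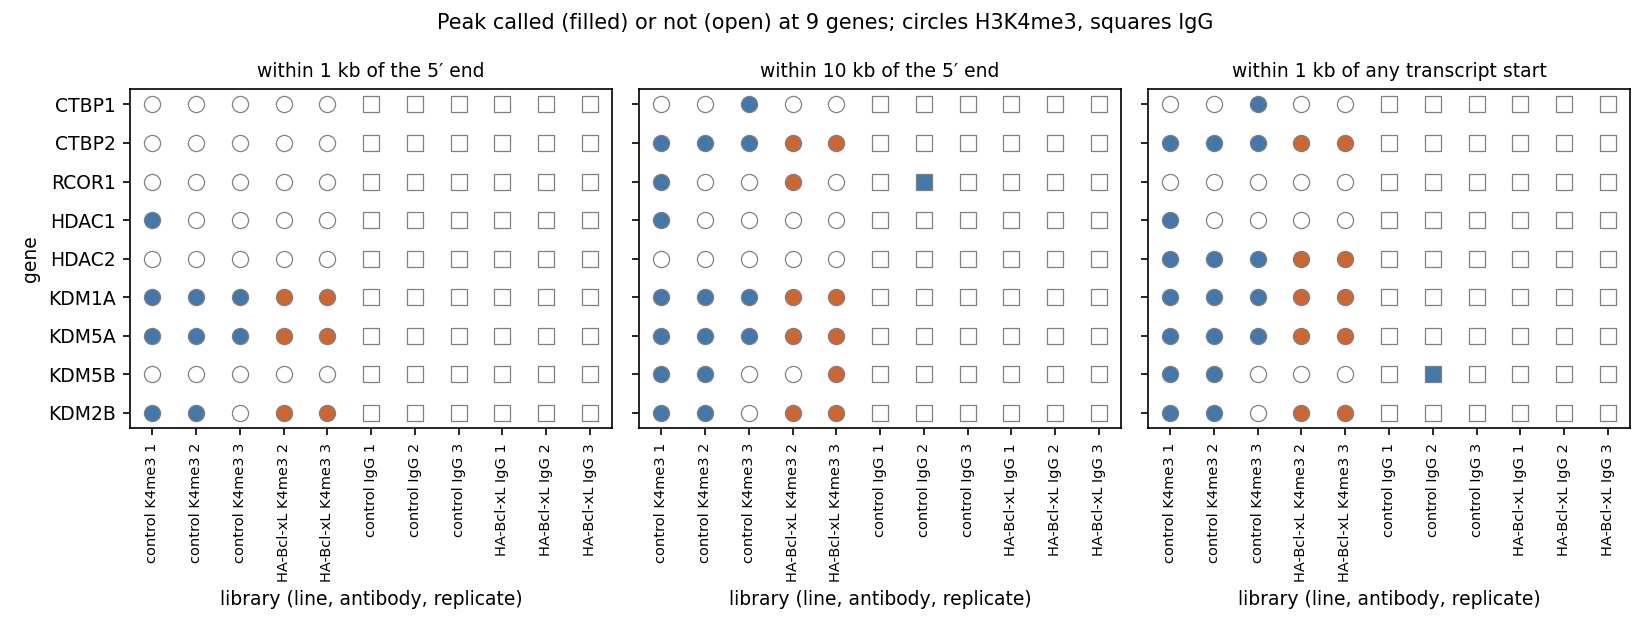
Called peaks (filled) at the 9 genes (rows) in each library (columns), for 3 windows; circles are H3K4me3 and squares IgG, blue is control and orange HA-Bcl-xL. KDM1A and KDM5A are filled in all 5 H3K4me3 columns of each panel, while CTBP2 and HDAC2 are open within 1 kb of the 5′ end and filled within 1 kb of any transcript start.

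No gene of the set separated the lines by presence. Within 1 kb of the 5′ end, 0 of 9 were marked in each HA-Bcl-xL library but in no control (0.844% of all genes), and 0 of 9 in each control but in no HA-Bcl-xL library (0.248%). The counts were also 0 within 10 kb (0.904% and 0.243%) and within 1 kb of any start (0.899% and 0.238%). A count of 0 among 9 genes is near these background shares. With 2 libraries against 3, full separation by presence gives p = 0.1 in a two-sided Fisher's exact test, so no gene could pass 0.05 and no such test was run.

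**Figure D2:**
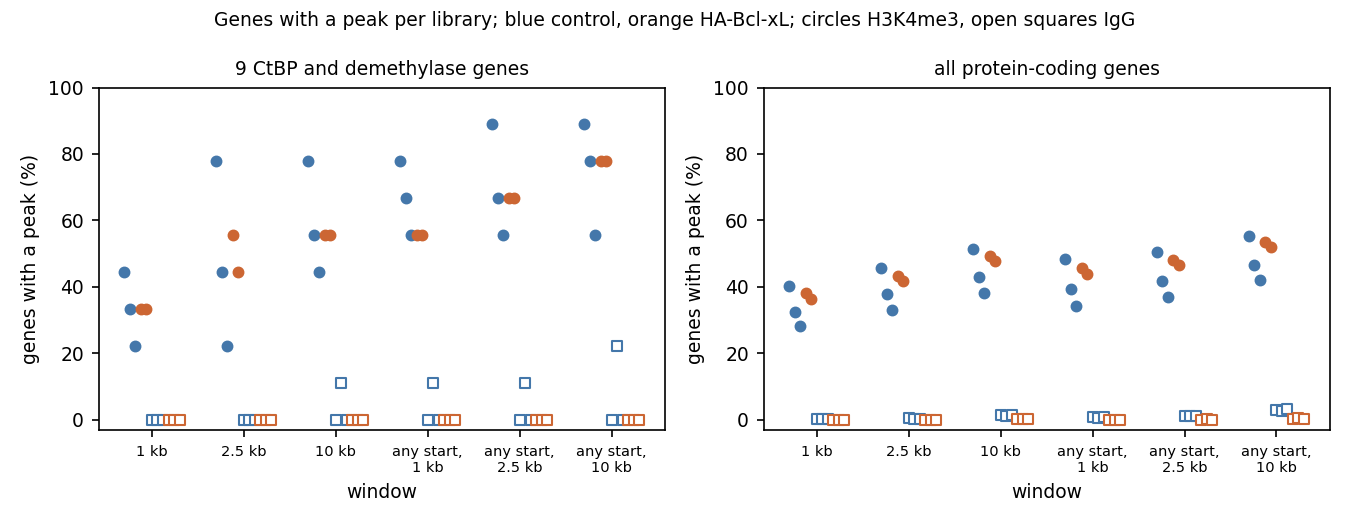
Share of genes with a peak (vertical axis, percent) in each library for 6 windows (horizontal axis), for the 9 genes on the left and all protein-coding genes on the right; circles are H3K4me3, open squares IgG, blue control and orange HA-Bcl-xL. HA-Bcl-xL circles lie within the range of the control circles at every window on both sides, and the IgG squares for all genes reach at most 3.41%.

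IgG gave almost nothing at these genes. No member had an IgG peak within 1 or 2.5 kb of its 5′ end in any of 6 libraries, where 0.785% and 1.47% of all genes had one. Within 10 kb RCOR1 did (4.47% of all genes), and around any start, within 1 kb, KDM5B (2.27%). Of the 2 IgG peaks within 10 kb of a member's start, both in control replicate 2, one lay 9141 bp upstream of RCOR1 and the other 185 bp from an internal start of KDM5B, each with 3 fragments at the summit. Neither overlapped an H3K4me3 peak. In control cells KDM1A and KDM5A were marked in all H3K4me3 and no IgG libraries (22.8% of all genes), and in HA-Bcl-xL cells KDM1A, KDM5A and KDM2B (31.5%). Around any start the counts were 4 (27.7%) and 5 (38.4%). The control call needs a peak in 3 H3K4me3 libraries and the HA-Bcl-xL call in 2, so these counts and shares do not compare the lines. The 54 H3K4me3 peaks within 10 kb of a member's start merged into 22 regions, of which 3 occurred in all 5 libraries and 12 in one.

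CTBP1 encodes the CtBP paralog best known as a nuclear corepressor with cytoplasmic functions. Its 5′ end lies at position 1244121 of chromosome 4 on the minus strand. Within 10 kb it had 1 peak in all, in control replicate 3, 2587 bp into the gene (1241452 to 1241534), inside an intron. The peak held 4 fragments at its summit and ranked at the 0.548 percentile of its list by the authors' -log10 p. Control replicates 1 and 2 and both HA-Bcl-xL libraries had no peak. Among genes of similar promoter GC content (1 of 10 equal bins), 47.2% had a peak within 1 kb on average over the libraries.

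CTBP2 was marked at one place in every H3K4me3 library. The gene runs from 126672886 to 126849739 of chromosome 10 on the minus strand, and the peaks merged to 126846771 to 126847287, 2452 to 2968 bp into the gene. This region covers an internal transcript start at 126847285; 82 of its 517 bases are UTR and the others intronic. The strongest peak held 27, 18 and 17 fragments in control replicates 1 to 3, and 20 in each HA-Bcl-xL library. It ranked at the 88.4, 68.1 and 79.0 percentiles of the control lists and at 72.9 and 70.2 in the HA-Bcl-xL lists. On both measures the HA-Bcl-xL libraries fell between the lowest and highest control. The bases common to all 5 libraries are the 41 capitals in the sequence above.

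Peak layout at CTBP2 varied within each line. At the shared region, control replicates 1 and 2 had a single wide peak, of 352 and 363 bp, while control replicate 3 had 2 peaks of 99 and 119 bp. HA-Bcl-xL replicate 2 had 2 peaks, of 100 and 212 bp. HA-Bcl-xL replicate 3 had 1 peak of 111 bp, with its nearer edge 285 bp downstream of the internal start. Within 1 kb of any start, the bases under peaks were 434, 363 and 218 in control and 312 and 111 in HA-Bcl-xL libraries, so the lines overlapped. The log2 difference, HA-Bcl-xL minus control, was -0.93 (SE 0.461, limma, adjusted p = 0.994). It was -1.62 without HA-Bcl-xL replicate 2 and -0.24 without HA-Bcl-xL replicate 3. Within 10 kb of the 14 annotated start positions of CTBP2, the lists held 1 further peak, of 94 bp, in control replicate 1 at 126846273 to 126846366, beside the shared region.

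**Figure D3:**
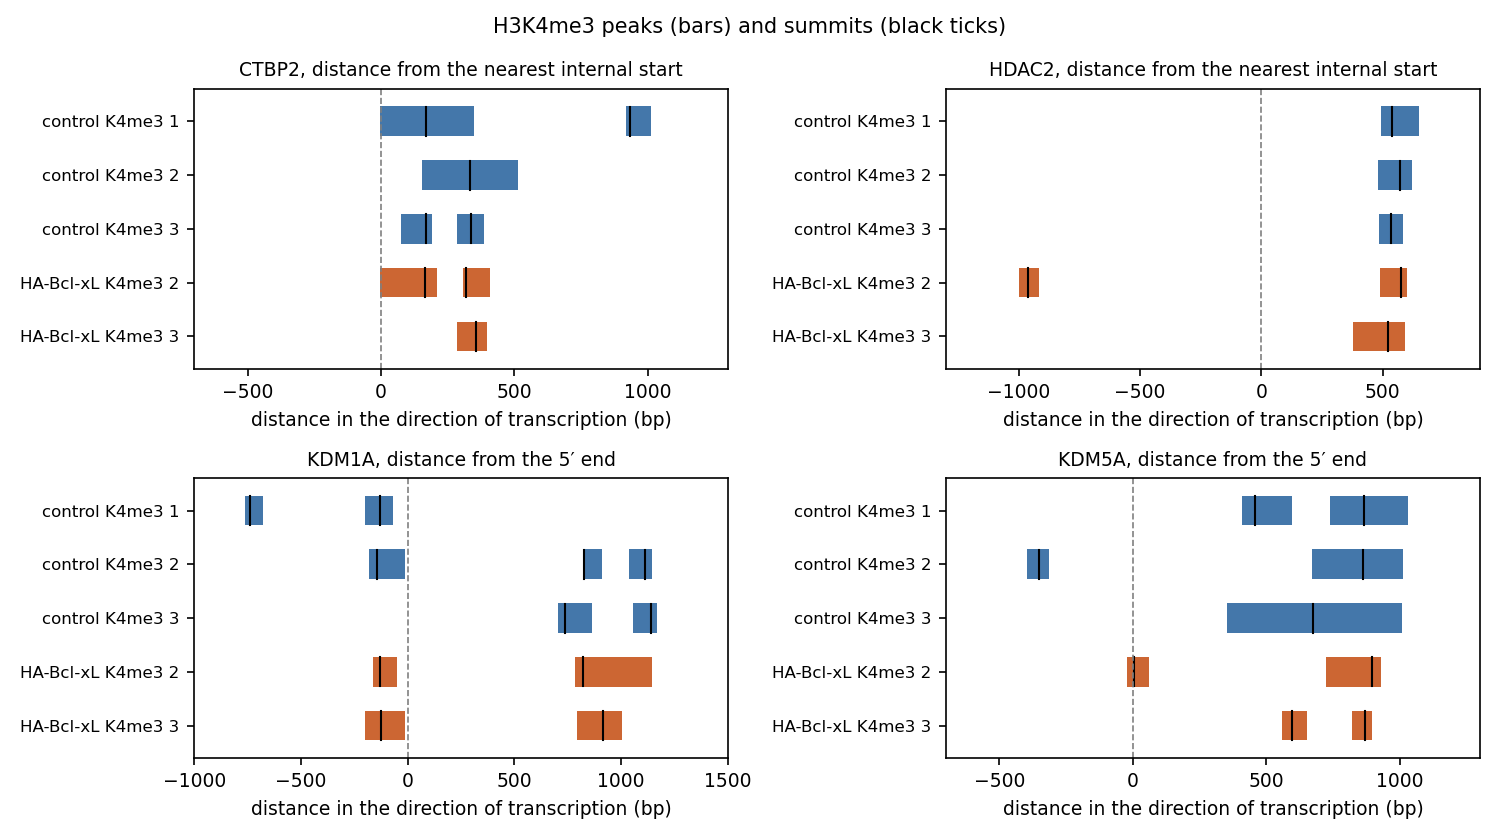
H3K4me3 peaks (bars) with their summits (black ticks) in each library (rows), by distance in bp from the nearest internal start of CTBP2 and HDAC2 and from the 5′ end of KDM1A and KDM5A, with downstream to the right; blue is control and orange HA-Bcl-xL. CTBP2 and HDAC2 have peaks at or downstream of an internal start in all 5 libraries, KDM1A has peaks on both sides of its 5′ end, and the KDM5A bars cover fewer bases in sum in each HA-Bcl-xL row (289 and 168) than in each control row (423 to 657).

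RCOR1 encodes CoREST, the scaffold that holds LSD1 and the deacetylases on nucleosomes. Its 5′ end is at 103058986 of chromosome 14, plus strand. The same pair of intronic peaks occurred in control replicate 1 (103060102 to 103060403 and 103061037 to 103061114) and in HA-Bcl-xL replicate 2 (103060109 to 103060277 and 103061032 to 103061119). Fragments at the summits were 17 and 10 in the control library and 10 and 13 in the HA-Bcl-xL library. The other 3 libraries, from both lines, had no peak within 10 kb.

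HDAC1 encodes a class I deacetylase, and few peaks were called near it. In control replicate 1 a 78 bp peak with 9 fragments lay 389 bp downstream of its 5′ end (chromosome 1, 32757684, plus strand). No other H3K4me3 library had a peak within 10 kb of that end. Farther into the gene, HA-Bcl-xL replicate 2 had an intronic peak of 190 bp with 4 fragments (32787402 to 32787591) and, beyond the 3′ end of HDAC1, a 76 bp peak within an exon of MARCKSL1. Within 10 kb of a late HDAC1 transcript start, control replicates 1 and 2 and HA-Bcl-xL replicate 3 shared a region at 32800965 to 32801107, which lies beyond the 3′ end of HDAC1 and 754 to 802 bp, summit to start, from the start of MARCKSL1. By position the peaks near MARCKSL1 cannot be assigned to HDAC1.

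HDAC2, the paralog of HDAC1, was unmarked within 10 kb of its annotated 5′ end, at 114332472 of chromosome 6 on the minus strand. Of its 16 start positions, 12 lie within 1500 bp of a region at 114291009 to 114291283 that had a peak in all 5 H3K4me3 libraries. The region was intronic for HDAC2 and lay entirely within exons of the antisense transcript HDAC2-AS2, so the mark cannot be assigned to one of the 2 genes by position. The peak held 18, 8 and 8 fragments in the control libraries in order, against 9 and 8 for HA-Bcl-xL replicates 2 and 3. Control replicate 1 stood above the other 4 libraries. HA-Bcl-xL replicate 2 also had an 84 bp peak at 114292576 to 114292659, at another HDAC2-AS2 start.

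For HDAC2, bases under peaks within 1 kb of any start were 157, 140 and 100 in control and 196 and 216 in HA-Bcl-xL libraries. Both HA-Bcl-xL libraries lay above all 3 control libraries, an order found for 9.79% of the 5330 genes tested (the opposite order for 5.35%). The 196 bases of HA-Bcl-xL replicate 2 include the 84 bp peak at the other HDAC2-AS2 start. At the shared region alone it had 112, inside the control range. The log2 difference was 0.53 (SE 0.403, limma, adjusted p = 0.994) and did not pass the test.

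KDM1A, which encodes LSD1, shares its promoter with TEX46, a protein-coding gene that starts 343 bp away on the other strand. Its 5′ end is at 23345936 of chromosome 1, plus strand. Upstream of this end, a peak between 23345735 and 23345923 was found in control replicates 1 and 2 and both HA-Bcl-xL libraries, with 19, 13, 16 and 14 fragments at summits from -145 to -124 bp. Control replicate 3 had none there, and control replicate 1 had a further peak, of 81 bp, with its summit at -738 bp. Inside the gene, an intronic region at 23346642 to 23347104, of which 403 of 463 bases lie in exons of a long noncoding RNA gene, had peaks in control replicates 2 and 3 and both HA-Bcl-xL libraries, with a strongest summit of 13, 11, 13 and 11 fragments. Control replicate 1, with the most fragments at the upstream summit, had none in that region. Peaks on both sides of the start were thus found in control replicate 2 and in both HA-Bcl-xL libraries. KDM1A therefore had a peak in all 5 libraries although no single base was under a peak in more than 4.

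Bases under peaks within 2.5 kb of the KDM1A 5′ end were 214, 369 and 270 in control libraries, 284.3 ± 78.5 (SD, n = 3). In HA-Bcl-xL replicates 2 and 3 they were 478 and 398, or 438 ± 56.6 (SD, n = 2). Both HA-Bcl-xL libraries lay above the control libraries, as for 9.44% of the 5151 genes with a peak in all 5 libraries. The log2 difference of 0.54 (SE 0.461) had a limma adjusted p of 0.996. It was 0.11 without control replicate 1 and 1.16 with only peaks of -log10 q of at least 5.

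KDM5A, a demethylase first described as an RB-binding protein, had the widest peak of the set. Its 5′ end is at 498486 of chromosome 12 on the minus strand, 47 bp from that of CCDC77 on the other strand, with which its transcripts overlap. All 5 libraries had peaks in a region 353 to 1030 bp into the gene (497456 to 498133), where 282 of 678 bases are exonic in at least 1 transcript, 92 of them coding. Besides, HA-Bcl-xL replicate 2 had an 83 bp peak over the 5′ end itself and control replicate 2 an 85 bp peak upstream of it. Bases under peaks within 2.5 kb were 479, 423 and 657 in control libraries, 519.7 ± 122 (SD, n = 3). In HA-Bcl-xL replicates 2 and 3 they were 289 and 168, or 228.5 ± 85.6 (SD, n = 2). All 3 control values lay above both of these.

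That order was found for 5.77% of the 5151 genes tested, and it was lost for KDM5A when every list was cut to the 10247 strongest peaks (log2 difference -1.45, adjusted p = 0.878 in limma). The log2 difference for KDM5A was -1.33 (SE 0.465), with 0.544% of genes lower. Its p was 0.0102 before and 0.857 after Benjamini-Hochberg adjustment in limma, so it did not pass the test. The 657 bp came from a single peak of control replicate 3, at the 99.95 percentile of width in the shortest H3K4me3 list, and without that library the difference was -0.95. The strongest KDM5A summits held 13, 16 and 11 fragments in control and 11 and 11 in HA-Bcl-xL libraries. The lines overlapped in summit height.

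**Figure D4:**
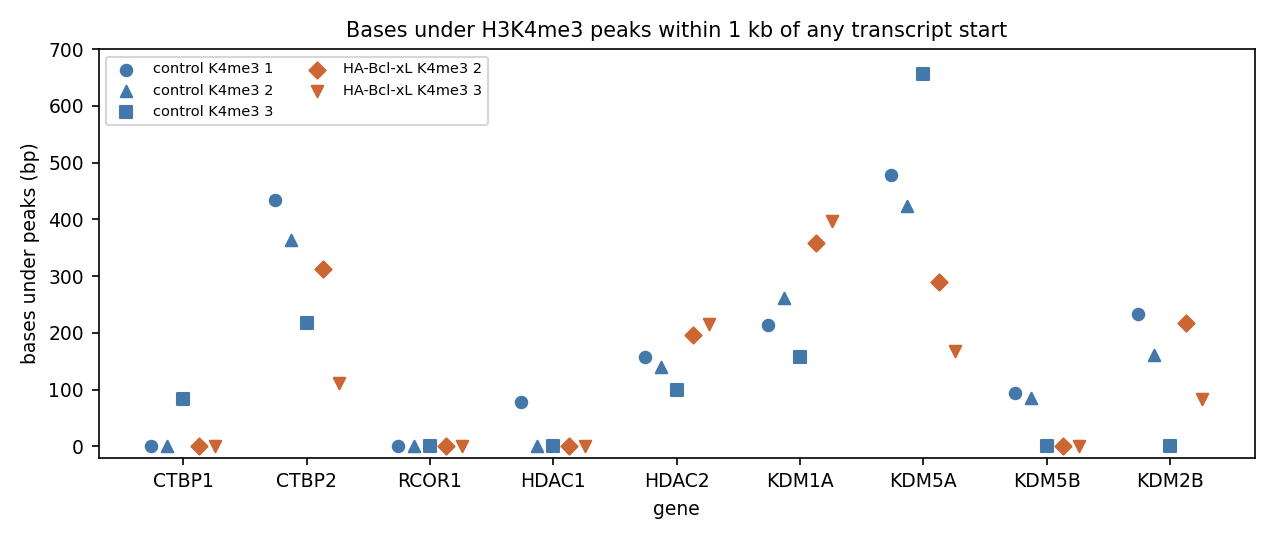
Bases under H3K4me3 peaks within 1 kb of any transcript start (vertical axis, bp) at each gene (horizontal axis), with 1 symbol per library, blue for control and orange for HA-Bcl-xL. HA-Bcl-xL symbols lie below all control symbols at KDM5A (168 and 289 against 423 to 657) and above them at HDAC2 and KDM1A, and the lines overlap at CTBP2 and KDM2B.

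No gene passed an adjusted p of 0.05 in the test of bases under peaks. Within 2.5 kb of the 5′ end, limma called 0 of 5151 genes in either direction (0%), with a smallest adjusted p of 0.733 and 269 genes at an unadjusted p under 0.05. Around any start it called 0 of 5330, with 256 at an unadjusted p under 0.05. The labels do not say whether replicates came from separate cultures, so these p-values measure the spread between these libraries only.

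KDM5B, the KDM5 paralog known from breast cancer, was unmarked in every library within 1 kb of its 5′ end, at 202777615 of chromosome 1 on the minus strand. Control replicates 1 and 2 shared an intronic peak 2042 to 2138 bp into the gene (202775477 to 202775573), with 9 and 13 fragments. It lay 306 to 308 bp from a transcript start and ranked at the 1.55 percentile in replicate 1 and at 48.4 in replicate 2. Control replicate 1 had another peak 42691 bp into the gene, with 4 fragments. HA-Bcl-xL replicate 3 instead had a 77 bp peak with 12 fragments 2295 bp upstream, whose summit was 23 bp from the start of a long noncoding RNA gene (ENSG00000260021) that starts beside PCAT6. HA-Bcl-xL replicate 2 and control replicate 3 had no peak within 10 kb of any start.

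KDM2B, which recognises unmethylated CpG through a zinc finger, had a peak in 4 libraries between 122017949 and 122018202 of chromosome 12, 726 to 979 bp downstream of its 5′ end (122018928, minus strand). All 254 bases are UTR in at least 1 KDM2B transcript, and 9 are also coding. The summits held 10 and 7 fragments in control replicates 1 and 2, with no peak in replicate 3, against 9 and 6 in the HA-Bcl-xL libraries. The bases under peaks were 234, 161 and 0 in control and 218 and 83 in HA-Bcl-xL libraries, and the lines overlapped.

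Ordered by the median percentile rank of the strongest peak within 1 kb of any start, CTBP2 came first (72.9, from 68.1 to 88.4), then KDM1A (70.0, from 56.9 to 83.9), KDM5A (52.2, from 44.4 to 81.0) and HDAC2 (36.6, from 24.3 to 84.3), over 5 libraries each. KDM2B had 44.9, from 11.9 to 56.9, over the 4 libraries with a peak. Each range overlapped that of its neighbours. HDAC1 had 51.0 in its 1 library. KDM5B had 25.0, from 1.55 to 48.4, over 2 libraries, and CTBP1 0.548 in 1 library. The ranks describe peaks within each list and are not levels of the mark per gene.

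**Figure D5:**
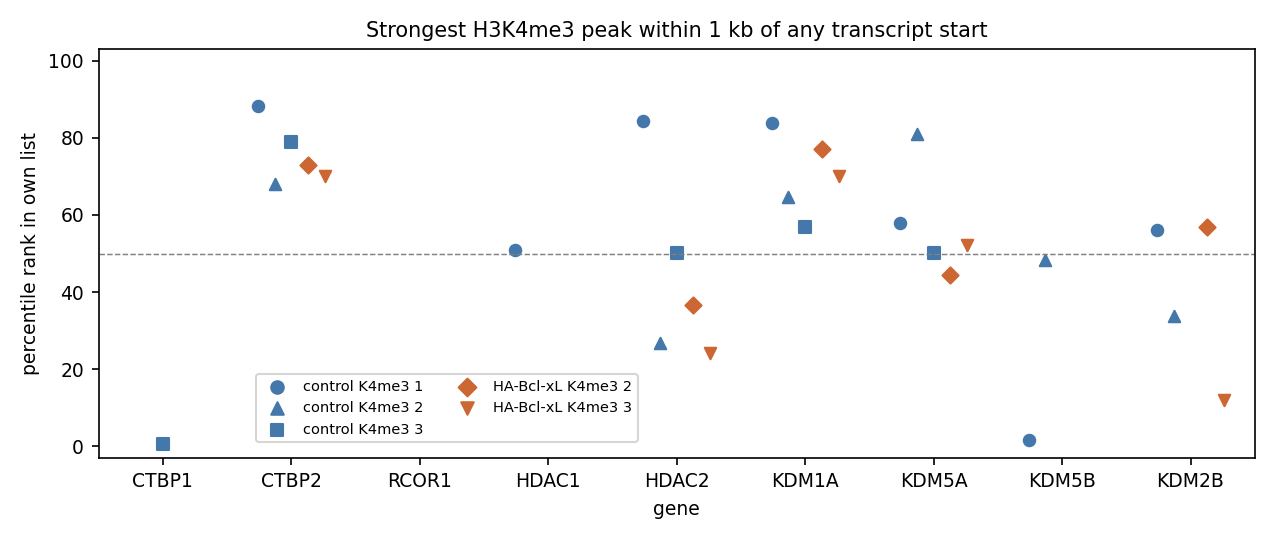
Percentile rank of the strongest H3K4me3 peak within 1 kb of any transcript start, by the authors' -log10 p within its own list (vertical axis), at each gene (horizontal axis), 1 symbol per library; genes without a symbol had no peak. CTBP2 lies above 68 in all 5 libraries, while HDAC2 spreads from 24.3 to 84.3.

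GC content at the 5′ end is given beside the peaks there as a description. From 250 bases before to 50 after the 5′ end, GC content was 74.7% at CTBP2, 74.3% at RCOR1 and 73.7% at HDAC1, above 88.8%, 88.2% and 86.8% of all genes, and of these only HDAC1 was marked within 1 kb, in 1 library, where 41.0% of genes in their GC bin had a peak on average over the libraries. It was 63.3% at KDM1A and 60% at KDM5A, near the median of 60.3% over all genes, and so were CTBP1 (61%) and KDM5B (59.3%), which had no peak within 1 kb. KDM2B had 53%, above 29.9% of all genes, and was marked within 1 kb in 4 of 5 libraries. HDAC2 had 46.0% and 4 CpGs at the annotated 5′ end, against 71.3% and 32 CpGs at the internal start nearest its peaks. At CTBP2 the internal start had 65.3% and 34 CpGs, and the 5′ end 33 CpGs.

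Motifs were searched in the same 300 bases on both strands. GGGCGG, the core of SP and KLF sites, occurred at 6 of 9 genes (52.2% of all genes) and CCAAT, the core of NF-Y sites, at 5 (35.8%). CCGGAAG, an ETS core, occurred at KDM5A and KDM2B (11.8% of all genes), and the NRF1 palindrome at 0 (1.48%). These are letter matches and not measured sites.

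Related genes were counted the same way: 16 CtBP and CoREST partners, 5 other demethylases, 5 SIN3 and KDM5 partners and 7 partners of KDM2B. Within 1 kb of the 5′ end, 7 of these 33 genes were marked in all 5 libraries and 13 in none, against 21.3% and 51.8% of all genes. Around any start, 9 had one in all 5 and 4 in none, against 26.5% and 43.4%. The 7 were the CoREST paralog RCOR3, the LSD1 paralog KDM1B, RIOX1, the SIN3 scaffold SIN3A and its partner EMSY, and the KDM2B complex members PCGF1 and SKP1. MORF4L1 and KDM2A joined them around any start. RCOR2, another CoREST paralog, EHMT1, an H3K9 methyltransferase found with CtBP, and RNF2, a Polycomb ubiquitin ligase, were marked within 1 kb in all 3 control libraries but in only 1 HA-Bcl-xL library each, a difference that was not tested.

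KDM2A, the paralog of KDM2B, was the related gene that met the presence rule within 1 kb (each HA-Bcl-xL library, no control), 1 of 33 against 0.844% of all genes. Its 5′ end is at 66886734 of chromosome 11, plus strand. The HA-Bcl-xL peaks began 638 and 976 bp from that end and ranked at the 16.6 and 12.1 percentiles of their lists. The nearest control peaks began 1377, 1060 and 1450 bp away in replicates 1 to 3, and within 2.5 kb KDM2A had a peak in all 5 libraries. In the limma fit, 0 of 8 related genes with a peak in all 5 libraries were called in either direction. Their median log2 difference was 0.13, against -0.02 over all genes tested.

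By the rule for likeness, the genes nearest to CTBP1 and CTBP2 could not be singled out. In none of the 5 H3K4me3 libraries was either marked within 1 kb of its 5′ end, a pattern shared by 10436 other genes.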

How the data were processed

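The authors deposited peak lists in narrowPeak format, 1 per library and not pooled. Per the submitters' processing notes, bcl2fastq 2.20, Trimmomatic 0.36, Bowtie2 2.2.9, MACS2 2.1.1 and deepTools 3.5.1 were used with build hg19; settings, duplicate treatment and control input are not given in the sources used here. The deposited values of each peak are a fold enrichment, -log10 values of p and of q, and a score, which in these lists equals 10 times the -log10 q cut to a whole number. They were used only to rank, filter or describe peaks within their own list, and to solve the whole number of fragments at the summit from fold and -log10 p (matched to within 0.001 for at least 94.4% of peaks per list, and checked on simulated data). Since the caller sets absence by a threshold, a peak can be missed in a shallow library or over a high local background.

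Genes came from GENCODE's annotation lifted to GRCh37, the build of the sequences shown. A gene had a peak where at least 1 bp fell in its window. Bases under peaks were compared with limma 3.58.1 (R 4.3.3) on the log2 scale, with Benjamini-Hochberg adjustment. Each library was centred on its median, over all genes with a peak in all 5 H3K4me3 libraries. The fit was also run on simulated data, with changes larger than those of the members. Whether it would detect changes of the members' size was not checked. Python 3.11.15, pandas 2.3.3, scipy 1.17.1 and matplotlib 3.10.9 were used. Alternatives were other windows and starts, a stricter q (-log10 of at least 5), lists cut to the same number of peaks, summits in place of overlap, removal of IgG-overlapping peaks, no centring, genes with a peak in at least 3 libraries (50 bases added before the log), a replicate block, and each library left out in turn. All 9 genes are named, as are related genes called by presence or limma and genes sharing a start region. RCOR2, EHMT1, RNF2 and the related genes marked in all 5 libraries are named after their values were seen. The members and lists were chosen with earlier results of these data known. Counts of fragments cover counting error only, since PCR copies are not independent.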

Additional observations from a re-analysis of the deposited data

How the results depend on the processing

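Of 85 values recomputed under other settings, 71 stayed within 1.5 times, 1 SD or the same direction and side of the threshold, 14 moved and 0 reversed; with 1 library left out, 81 of 83 stayed and 2 moved. Some left-out values could not move, since the IgG comparison of each line was also recomputed without libraries of the other line. A change from 2 to 3 genes counted as staying. These tallies are therefore not a measure of stability. The window mattered most. The difference in genes with a peak per library, 0 within 1 kb of the 5′ end, went to -1, -0.333 and 0.333 within 1, 2.5 and 10 kb of any start. Genes marked in all 5 libraries went from 2 to 4 around any start (1, 2.5 or 10 kb, the last added after seeing the data). Unmarked genes went from 5 to 2 and 1 within 2.5 and 10 kb of the 5′ end, and to 1, 0 and 0 around any start. Genes in all H3K4me3 and no IgG libraries went from 2 to 4 in control and from 3 to 5 in HA-Bcl-xL cells around any start, and genes with an IgG peak from 0 to 1 there and within 10 kb. The count of genes with a limma call on bases under peaks was 0 to 3 with 1 library left out; the 2 and 3 calls came without HA-Bcl-xL replicates 2 and 3, where the lone library is assumed to vary like the controls. A replicate block over replicates 2 and 3 gave 3 calls among 5210 genes, none of them a member, and around any start 7 higher and 4 lower among 5398; the cause was not tested. The deviations of same-numbered libraries correlated at 0.00455 and 0.0297; with 2 HA-Bcl-xL libraries their deviations mirror each other, so this check is weak, and no label says that a number marks a shared culture or day. Across alternatives the log2 difference ran from -1.996 to -0.95 for KDM5A (adjusted p 0.283 to 1.00, the lowest with the replicate block around any start), 0.11 to 1.16 for KDM1A, -1.62 to -0.24 for CTBP2 and 0.33 to 0.66 for HDAC2, and no adjusted p for these 4 genes passed 0.05. Without centring, the median log2 difference of all genes went from -0.02 to 0.10, with no call. With 9 to 12 fragments at a median summit, absence of a peak is not absence of the mark.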
